A study of Homo sapiens with 6 samples.

Results

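Ddr1 and Ddr2 encode the discoidin domain receptors, the receptor tyrosine kinases that bind collagen. These 2 genes were taken by name from a table of 21872 gene symbols, counted in 6 RNA-seq libraries of MOC2, an established line of mouse oral squamous carcinoma. They were chosen by their CPM in knockout and control libraries and by the ratio of the pair, so these values are given below as a description. The 3 HuR knockout libraries came from cells transduced with lentiviral particles carrying CRISPR/Cas9 against the gene for HuR, and the 3 control libraries from cells given control CRISPR/Cas9 particles. Both groups were thus transduced MOC2 cells grown in the same serum-containing medium. Elavl1 encodes HuR, which binds AU-rich elements of mRNAs. The knockout libraries are titled knockdown but have the genotype label knockout, and a single clone was isolated for the loss of HuR, per the labels' protocols. Loss of HuR therefore cannot be told apart from other differences between that clone and the control cells. This holds for every difference between knockout and control below. No label gives the 3 knockout libraries clones or cultures of their own, and p-values therefore reflect only how these libraries vary, which may be technical variation. The sample labels name human as the species, whereas the series title and the gene symbols are those of mouse.

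Discoidin domain receptors are single-pass membrane proteins with an extracellular discoidin domain that holds triple-helical collagen and an intracellular tyrosine kinase. They are known for slow and long-lasting activation by collagen, which needs no integrin. DDR1 is typical of epithelial cells and binds fibrillar collagens and the basement membrane collagen IV. DDR2 is typical of mesenchymal cells such as fibroblasts and binds fibrillar collagens and collagen X. Both are studied in carcinomas, where a change from the first receptor to the second has been described for epithelial-mesenchymal transition.

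The library totals lay between 16158516 and 21294330 counts. Log2 CPM, the depth-normalised read count scaled by the TMM method, correlated at 0.985 to 0.990 between control libraries, at 0.975 between knockout libraries 1 and 2, and at 0.921 and 0.929 between knockout library 3 and the other knockout libraries (Pearson's r, taken across genes, which do not serve as replicates). Knockout library 3 thus stood apart, and values without it are given where they matter. Elavl1, the targeted gene, had 116, 114 and 105 CPM in the knockout libraries and 107, 120 and 117 CPM in the control libraries, which overlap (adjusted p = 0.82 by edgeR). Editing of a gene need not lower its mRNA, and these values therefore say nothing on whether the labels are right. Over all genes, 35.7% of 12293 tested passed an adjusted p of 0.05 (edgeR's quasi-likelihood test with Benjamini-Hochberg adjustment), 20.3% higher and 15.4% lower in knockout.

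Ddr2 mRNA was nearly absent from control cells and plain in knockout cells. It had 1706, 1396 and 1443 counts in knockout libraries 1, 2 and 3, and 10, 8 and 12 counts in control libraries 1, 2 and 3. In CPM, Ddr2 was at 92.9, 68.4 and 88.3 in the knockout libraries and at 0.468, 0.393 and 0.729 in the control libraries. Every knockout library thus stood far above every control library, and the knockout libraries lay close together. The means were 83.2 ± 13 CPM in knockout and 0.53 ± 0.176 CPM in control (SD, n = 3 each). The fitted log2 fold change, knockout over control, was 7.30 (SE 0.28), or 158-fold. Taken from the summed counts, 4545 in knockout and 30 in control, the ratio was 160 with an exact 95% interval of 112 to 237, which covers counting error only. No test is given for Ddr2 or Ddr1, which were picked with these values known.

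Ddr1 was well expressed in both groups and was not lower in knockout. It had 4410, 5059 and 5372 counts in knockout libraries 1, 2 and 3, against 3947, 3307 and 2879 counts in control libraries 1, 2 and 3. In CPM, Ddr1 was at 240, 248 and 329 in the knockout libraries and at 185, 162 and 175 in the control libraries. The groups did not overlap, and the highest value was that of knockout library 3. The means were 272 ± 49.1 CPM in knockout and 174 ± 11.2 CPM in control (SD, n = 3 each), with a log2 fold change of 0.65 (SE 0.16), or 1.57-fold. Without knockout library 3 the log2 fold change of Ddr1 was 0.49. The pair had been taken up as a possible switch from one collagen receptor to the other, and these counts show no such exchange, since Ddr2 was higher in knockout while Ddr1 was not lower.

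**Figure D1:**
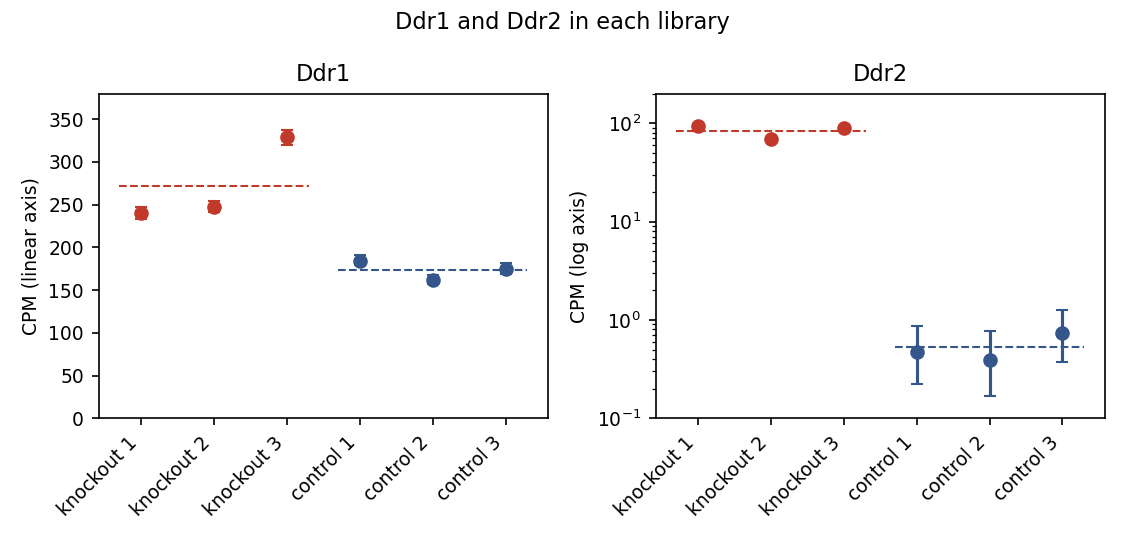
CPM of Ddr1 (left, linear axis from 0) and Ddr2 (right, log axis) in each knockout library (red) and control library (blue). Points are single libraries, bars are exact 95% Poisson intervals that cover counting error only, and dashed lines are group means, 272 and 174 CPM for Ddr1 and 83.2 and 0.53 CPM for Ddr2 in knockout and control.

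The receptors did not follow each other among the knockout libraries. Ddr2 was highest in knockout library 1 and lowest in knockout library 2, whereas Ddr1 was highest in knockout library 3 and lower in knockout libraries 1 and 2, whose counting intervals overlap. For both genes the lowest control value was that of control library 2. Counting error cannot be ignored for Ddr2 in control: the exact 95% intervals of its CPM were 0.224 to 0.86, 0.17 to 0.774 and 0.377 to 1.27 in control libraries 1, 2 and 3, and they overlap one another. The intervals of Ddr2 in the knockout libraries, 88.6 to 97.4, 64.8 to 72.1 and 83.8 to 93 CPM, set library 2 below the others. Both rows held counts in every library, and neither belongs to the rows of multiples of 11 that were rescaled.

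The ratio of the receptors within a library does not depend on how libraries are scaled. There were 387, 276 and 269 Ddr2 counts per 1000 Ddr1 counts in knockout libraries 1, 2 and 3, and 2.53, 2.42 and 4.17 in control libraries 1, 2 and 3. Expressed as a share of the counts of both genes, Ddr2 made up 27.9%, 21.6% and 21.2% in the knockout libraries and 0.253%, 0.241% and 0.415% in the control libraries. The exact (Clopper-Pearson) 95% intervals of these shares ran from 20.2% to 29% over the knockout libraries and from 0.104% to 0.724% over the control libraries. The mean log2 ratio of Ddr2 to Ddr1 counts was -1.71 ± 0.293 in knockout and -8.41 ± 0.435 in control (SD, n = 3 each), a difference of 6.70, or 104-fold. Ddr1 counts outnumbered Ddr2 counts in every library. Gene lengths were not used here, so the ratio compares libraries and does not say which receptor had more mRNA molecules.

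**Figure D2:**
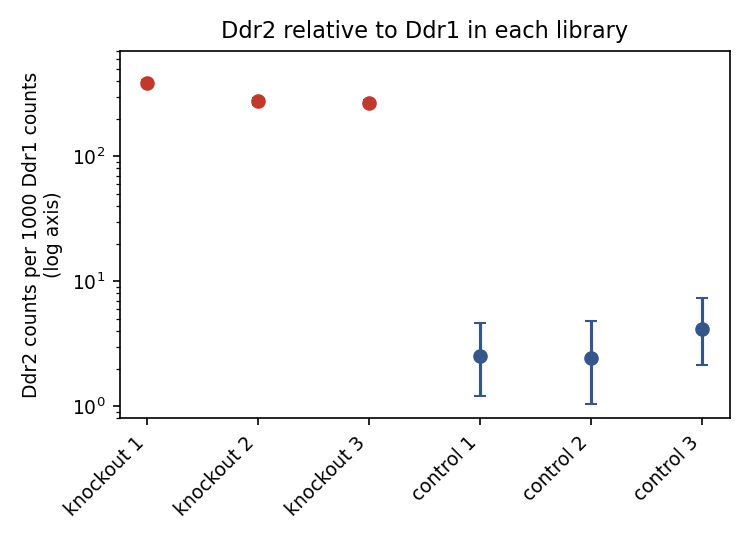
Ddr2 counts per 1000 Ddr1 counts (log axis) in each knockout library (red) and control library (blue), with exact 95% binomial intervals that cover counting error only. The knockout libraries lay between 269 and 387 and the control libraries between 2.42 and 4.17.

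Set against all genes, the change of Ddr2 was among the large ones and that of Ddr1 was not. Ddr2 ranked 107th and Ddr1 2768th of 12293 genes by log2 fold change from the highest. With 10, 8 and 12 control counts, Ddr2 passed the low-count filter through the knockout libraries. It was thus ranked only because it was high in knockout, and its place is a description. Every knockout library lay above every control library for 29.7% of the genes tested, so this feature alone does not single out Ddr1. There were 1108 other genes, tested or not, whose control mean lay within 2-fold of that of Ddr2. Of these, 12 (1.08%) had a knockout mean as high as that of Ddr2 or higher. For 365 (32.9%) every knockout library lay above every control library. The median ratio of knockout to control means over the 1108 genes was 1.33, where that of Ddr2 was 157. Both receptors were picked with these values known, so such shares are a description and no test. Of 2163 other genes within 2-fold of the control mean of Ddr1, the knockout libraries all lay above the control libraries for 344 (15.9%). A knockout mean at or above that of Ddr1 was found for 176 (8.14%). The median ratio of means over these 2163 genes was 0.865, where that of Ddr1 was 1.57.

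Several fibrillar collagen chains, ligands of both receptors, were much higher in knockout, and one chain that is needed for the usual collagen I heterotrimer was close to absent. Of 11 fibrillar chains, 7 had enough counts to test and all 7 rose, where 20.3% of all genes were higher. Their median log2 fold change was 3.93, against 0.03 over all genes tested. Chains with next to no control counts passed the low-count filter because of the knockout libraries, which makes this count and median no support for a direction. Col3a1, the chain of collagen III, was at 216, 233 and 229 CPM in the knockout libraries and at 0.608, 0.736 and 0.85 CPM in the control libraries. It rose 309-fold (log2 fold change 8.27, SE 0.179, adjusted p = 1.5e-05), the knockout values lying within a narrow band. Col1a1, the major chain of collagen I, was at 199, 121 and 119 CPM in the knockout libraries and at 3.84, 0.687 and 4.43 CPM in the control libraries, and rose 49.3-fold (adjusted p = 0.00158). Its partner chain Col1a2 had at most 0.122 CPM in any library and was not tested.

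The collagen V chain Col5a1 was at 218, 173 and 454 CPM in the knockout libraries and at 30.7, 27.7 and 46.8 CPM in the control libraries, and rose 8.03-fold (adjusted p = 0.00308). Col5a3, another collagen V chain, was at 65.3, 57.3 and 18.8 CPM in the knockout libraries and at 3.23, 1.13 and 2.25 CPM in the control libraries, and rose 21.3-fold (adjusted p = 0.0028). Knockout library 3 was thus the highest for Col5a1 and the lowest of the knockout group for Col5a3. Col11a1 of collagen XI rose 15.3-fold to 3.83 ± 0.454 CPM, against 0.249 ± 0.109 CPM in control, and Col27a1 rose 10.3-fold to 4.57 ± 1.46 CPM, against 0.445 ± 0.212 CPM in control (SD, n = 3 each; adjusted p = 0.00105 and 0.00279 by edgeR). Col11a2 had a log2 fold change of 3.04 (adjusted p = 0.045) and lost its call without any 1 library (adjusted p between 0.0505 and 0.15), with log2 fold changes of 2.16 without knockout library 3 and 4.05 without control library 1. Col2a1, Col5a2 and Col24a1 had too few counts to test.

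The network-forming chains went both ways. Of 9 such chains 7 were tested, of which 2 rose, 3 fell and 2 did not pass, where 35.7% of all genes were called. The median log2 fold change was 0.31. Col4a3 and Col4a4 passed the low-count filter through the control libraries, and Col8a2 through the knockout libraries. Each of these calls could only point 1 way, so no direction of the list is drawn from its count or median. The main chains of collagen IV, which line basement membranes and bind DDR1, did not pass. Col4a1 was at 980, 982 and 2631 CPM in the knockout libraries and at 1034, 869 and 1054 CPM in the control libraries (adjusted p = 0.262), so the groups overlapped and the high value was that of knockout library 3. Col4a2 showed the same picture, with 712, 612 and 1710 CPM in the knockout libraries and 853, 707 and 895 CPM in the control libraries (adjusted p = 0.576). The minor chain Col4a5 rose 4.12-fold to 58 ± 14.4 CPM, against 14.1 ± 3.38 CPM in control (adjusted p = 0.00206 by edgeR).

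Col4a3 had no count in any knockout library and 15.1, 10.5 and 9.96 CPM in the control libraries, at least 221-fold lower against a floor of 3 counts over the knockout group. Its assembly partner Col4a4 was at 0.163, 0 and 0.0612 CPM in the knockout libraries and at 18.9, 13.8 and 10.9 CPM in the control libraries, and fell 183-fold (adjusted p = 0.00064), a size that rests on 4 knockout counts and was 428-fold without knockout library 1 and 120-fold without knockout library 2. The collagen VIII chains moved in opposite directions. Col8a1 was at 43.4, 36.7 and 15.1 CPM in the knockout libraries and at 174, 172 and 182 CPM in the control libraries, and fell 5.54-fold (adjusted p = 0.0038). Col8a2 rose 8.51-fold to 3.22 ± 2.26 CPM, against 0.372 ± 0.278 CPM in control (adjusted p = 0.0218 by edgeR). It lost its call without knockout library 2, where it rose 5.07-fold, and without control library 2 or 3 (adjusted p = 0.0542, 0.0678 and 0.0886), and rose 14-fold without control library 1. With Col8a2 lost, 1 network chain rose in each of those 3 fits. Col10a1, a chain known to bind DDR2, was at most 0.121 CPM in any library.

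Collagen chains are hydroxylated and folded into the triple helix that discoidin domain receptors bind, and fibrillar collagens are also trimmed. Of 19 genes for these steps 18 were tested, 14 rose, 0 fell and 4 did not pass, where 20.3% of all genes were higher. The median log2 fold change was 1.13, against 0.03 over all genes. Tll1, with no control count in a row that was divided by 11, and Adamts2, with 4 control counts, passed the low-count filter through the knockout libraries. So did Adamts3, with 19 control counts, and P4ha3, with 43. The calls of Tll1, Adamts2, Adamts3 and P4ha3 could therefore only point higher. They are among the 14, so no direction of the list is drawn from its count or median. Without any 1 library 11 to 13 members rose. The members with negative log2 fold changes, Bmp1 and Pcolce2, had unadjusted p-values of 0.281 and 0.195, so 0 fell at an unadjusted p under 0.05 too, and DESeq2 also called 0 lower. Pcolce2 was nevertheless lower in every knockout library, at 65.3, 62.4 and 24.4 CPM, than in any control library, at 69.8, 79.3 and 67.8 CPM. Groups that did not overlap were found for 57.6% of all genes tested. Serpinh1, which encodes the collagen chaperone HSP47, was at 356, 325 and 229 CPM in the knockout libraries and at 79.6, 58.6 and 65.2 CPM in the control libraries, and rose 4.48-fold (adjusted p = 0.000958). Pcolce, an enhancer of procollagen C-propeptide cleavage, was at 792, 1204 and 706 CPM in the knockout libraries and at 30.8, 37.9 and 41.7 CPM in the control libraries, and rose 24.5-fold (adjusted p = 0.000288). P4ha3, a prolyl 4-hydroxylase subunit, rose 96.1-fold to 70.6 ± 29 CPM, against 0.718 ± 0.28 CPM in control, and P3h1, a prolyl 3-hydroxylase, rose 2.73-fold to 71.1 ± 7.13 CPM, against 26 ± 2.79 CPM in control (SD, n = 3 each; adjusted p = 0.000339 and 0.00094 by edgeR).

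**Figure D3:**
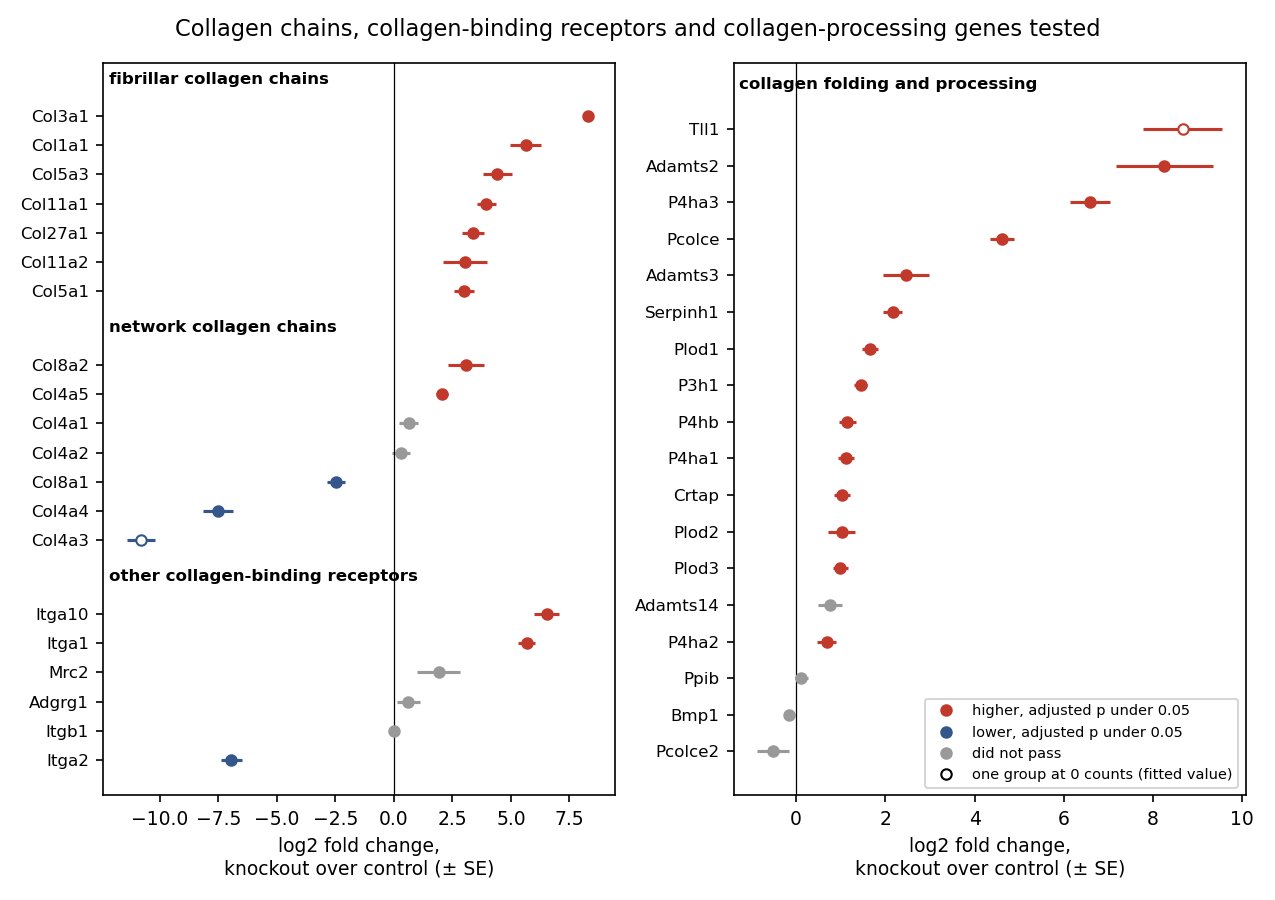
Log2 fold changes, knockout over control, with the standard error of the fit, for the fibrillar and network collagen chains and other collagen-binding receptors tested (left) and for collagen folding and processing genes (right). Red points passed higher, blue points passed lower, grey points did not pass and open points mark genes with 0 counts in one group, whose fitted value is no measured size. The 7 fibrillar chains and 14 of the 18 processing genes are red, and the network chains lie on both sides of 0.

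The other receptors for collagen also changed in opposite directions. Of 10 such genes 6 were tested, of which 2 rose, 1 fell and 3 did not pass, where 35.7% of all genes were called. The counts of the list were the same without any 1 library. Itga1 passed the low-count filter through the knockout libraries, so its call could only point higher. Itga2, the alpha chain of the collagen-binding integrin of epithelial cells, was at 2.89, 0.833 and 1.29 CPM in the knockout libraries and at 218, 182 and 219 CPM in the control libraries. It fell 124-fold (log2 fold change -6.95, SE 0.461, adjusted p = 0.000336), or 196-fold without knockout library 1. Itga1 and Itga10 encode alpha chains of other collagen-binding integrins. Itga1 was at 14.4, 20.1 and 27.2 CPM in the knockout libraries and at 0.327, 0.491 and 0.364 CPM in the control libraries, and rose 51.2-fold (adjusted p = 0.000327). Itga10 was at 74.8, 70.5 and 188 CPM in the knockout libraries and at 1.08, 0.884 and 1.7 CPM in the control libraries, and rose 91.6-fold (adjusted p = 0.000623), or 60.5-fold without knockout library 3.

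Itgb1, the beta chain that these alpha chains share, was at 1012, 1034 and 1300 CPM in the knockout libraries and at 1079, 1171 and 1091 CPM in the control libraries, which overlap (adjusted p = 0.992). The collagen endocytosis receptor Mrc2 was at 1.93 ± 2.06 CPM in knockout and 0.5 ± 0.298 CPM in control, and the adhesion receptor Adgrg1 at 3.14 ± 0.46 CPM in knockout and 2.06 ± 1.38 CPM in control (SD, n = 3 each; adjusted p = 0.145 and 0.373 by edgeR). Itga11 of fibroblasts, the leukocyte receptor Lair1 and the osteoclast receptor Oscar had at most 0.147 CPM in any library, and the platelet receptor Gp6 had no count.

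Genes listed as partners of DDR1 in epithelial cells were mixed, while Ddr1 itself was not lower. Of 12 such genes, all tested, 5 fell, 2 rose and 5 did not pass, where 35.7% of all genes were called. The median log2 fold change was -0.34. Cdh1, which encodes E-cadherin, fell 13.4-fold to 44.7 ± 19.2 CPM, against 599 ± 73.1 CPM in control (adjusted p = 0.000694 by edgeR). The polarity gene Pard6b was at 8.77, 5.78 and 7.04 CPM in the knockout libraries and at 120, 125 and 114 CPM in the control libraries, and fell 16.6-fold (adjusted p = 0.000205). Wwc1, which encodes the scaffold KIBRA, a DDR1-binding protein, was at 113, 86.5 and 75.7 CPM in the knockout libraries and at 432, 412 and 376 CPM in the control libraries, and fell 4.43-fold (adjusted p = 0.000612). The 2 members that rose were Pard6a, 1.51-fold, and Ppp1r1b, 3.79-fold (adjusted p = 0.0323 and 0.0211 by edgeR). Prkci, an atypical protein kinase C, fell 1.59-fold (adjusted p = 0.0133 by edgeR) and lost its call without control library 2 (adjusted p = 0.0571). Without that library 3 members fell, and without control library 1, 2 or 3 none rose; 1 rose without knockout library 1 or 2.

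Among proteases that shed or cut DDR1 and their inhibitors, 7 of 8 genes were tested, of which 2 rose, 2 fell and 3 did not pass. Over all genes tested 35.7% were called, and the median log2 fold change of the list was 0.19. Adam10, a sheddase of DDR1, was at 177, 220 and 235 CPM in the knockout libraries and at 81.3, 82.8 and 85 CPM in the control libraries, and rose 2.54-fold (adjusted p = 0.00111). Mmp14, a membrane-bound collagenase, was at 222, 243 and 312 CPM in the knockout libraries and at 339, 361 and 334 CPM in the control libraries. It did not pass (adjusted p = 0.0851 by edgeR). Its groups did not overlap, which was so for 57.6% of all genes tested. The inhibitor gene Timp3 fell 12.8-fold to 0.415 ± 0.444 CPM, against 5.41 ± 1.74 CPM in control (adjusted p = 0.00955 by edgeR), or 32.1-fold without knockout library 1. Timp3 passed the low-count filter through the control libraries, so its call could only point lower. Mmp15 (log2 fold change -1.63, adjusted p = 0.0243) and Timp2 (0.58, adjusted p = 0.0424) lost their calls without knockout library 2 or any 1 control library (adjusted p between 0.0526 and 0.159), so that 1 gene rose and 1 fell in those fits. Without knockout library 3, 4 rose and 3 fell.

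Of 17 genes for docking proteins and kinases downstream of discoidin domain receptors, all tested, 5 rose, 2 fell and 10 did not pass. Over all genes tested 35.7% were called, and the median log2 fold change of the list was 0.24. Shc1, an adaptor that docks on DDR1, was at 232, 311 and 252 CPM in the knockout libraries and at 104, 101 and 107 CPM in the control libraries, and rose 2.55-fold (adjusted p = 0.00119). Src, a kinase that takes part in DDR activation, was at 84.6, 79.5 and 81.7 CPM in the knockout libraries and at 153, 192 and 179 CPM in the control libraries, and fell 2.13-fold (adjusted p = 0.00154). The regulatory subunit Pik3r1 of PI3-kinase rose 9.09-fold to 179 ± 92.6 CPM, against 19.7 ± 2.07 CPM in control, and Mapk3, which encodes ERK1, rose 2.44-fold to 218 ± 22.3 CPM, against 89.5 ± 13.9 CPM in control (SD, n = 3 each; adjusted p = 0.00221 and 0.00196 by edgeR). Without control library 1, 2 or 3, 3 rose, and 1 fell without control library 2 or 3.

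Of 12 symbols for genes linked to DDR2 activity 10 were in the table and 7 were tested. Of these 3 rose, 2 fell and 2 did not pass, where 35.7% of all genes were called. The median log2 fold change of the list was -0.32. Snai1, a transcription factor of epithelial-mesenchymal transition whose protein DDR2 is known to stabilise, was at 31.1, 45 and 48.8 CPM in the knockout libraries and at 1.82, 1.08 and 2.31 CPM in the control libraries, and rose 24-fold (adjusted p = 0.00045). Snai2 rose 3.56-fold and the bone transcription factor Runx2 rose 2.22-fold (adjusted p = 0.0035 and 0.00293 by edgeR). The matrix gene Ccn2 was at 14.1, 12.9 and 10.1 CPM in the knockout libraries and at 539, 428 and 405 CPM in the control libraries, and fell 37-fold (adjusted p = 0.000205). The collagen crosslinker Lox had 1 count in the knockout group and was at 4.58, 1.13 and 2.31 CPM in the control libraries (adjusted p = 0.0035 by edgeR). Its ratio of knockout to control was 0.00664, with a counting interval of 0.000167 to 0.0375. Lox passed the low-count filter through its control counts, so its call could only point lower. The collagenase gene Mmp13 and the gelatinase gene Mmp2, both described as rising with DDR2 activity in other cells, had too few counts to test, at most 3.12 and 0.539 CPM.

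Of 20 transcription factors of epithelial and mesenchymal states, all tested, 9 rose, 4 fell and 7 did not pass, where 35.7% of all genes were called, and the median log2 fold change was 0.98. Twist2 was at 73.5, 77 and 72.9 CPM in the knockout libraries and at 15.2, 20.4 and 18.5 CPM in the control libraries, and rose 4.13-fold (adjusted p = 0.000441). Twist1, a transcription factor of mesoderm, rose 2.53-fold (adjusted p = 0.00152). The epithelial repressor Ovol2 fell 17-fold to 0.353 ± 0.147 CPM, against 6.17 ± 2.27 CPM in control (adjusted p = 0.0015 by edgeR). Ovol2 passed the low-count filter through its control counts, so its call could only point lower. Snai1 and Snai2, counted above among the genes linked to DDR2 activity, belong to this list too. Trp63, a factor of squamous epithelium, is among the 9 that rose, with 1.52, 4.51 and 15.8 CPM in the knockout libraries and no count in the control libraries (adjusted p = 0.0165). Its row was divided by 11 and passed the filter through its knockout counts, and the highest value was that of knockout library 3. Its call held without any 1 library (adjusted p between 0.00308 and 0.0435). The list mixes factors of both states, so its median has no single reading.

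Among receptor tyrosine kinases the large change of Ddr2 had company in both directions. Of 56 others, 35 had enough counts to test, of which 12 rose, 13 fell and 10 did not pass. Over all genes tested 35.7% were called, and the median log2 fold change of the list was 0.05. Of these 35, 2 had a higher log2 fold change than Ddr2, namely Pdgfrb and Fgfr2, and 12 a higher one than Ddr1. Pdgfrb and Fgfr2, like Ddr2 itself, passed the low-count filter through the knockout libraries. The calls of Pdgfrb and Fgfr2 could therefore only point higher and are no support for a direction. Pdgfrb, the platelet-derived growth factor receptor of mesenchymal cells, was at 12.6, 51.9 and 50 CPM in the knockout libraries and at 0.0468, 0.0491 and 0 CPM in the control libraries (adjusted p = 0.000788). Its ratio from summed counts was 1114, with a counting interval of 308 to 9203. Fgfr2 was at 4.25, 9.75 and 18.7 CPM in the knockout libraries and held 1 count in the control group, in control library 3 (adjusted p = 0.00157); its ratio was 616, with a counting interval of 110 to 24364. Without knockout library 3 the fitted fold of Fgfr2 was 296, against 455 with all libraries, and without control library 3 no control count was left. Its row was one of those divided by 11. Ddr2, with 30 control counts, has the more precisely measured ratio.

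Mertk, a receptor of the TAM family, was at 42.6, 51 and 99.2 CPM in the knockout libraries and at 1.64, 1.03 and 1.15 CPM in the control libraries, and rose 50-fold (adjusted p = 0.000485). Flt1, a VEGF receptor, rose 9.17-fold to 210 ± 48.2 CPM, against 22.9 ± 7.07 CPM in control (adjusted p = 0.000835 by edgeR). The largest falls among kinases with a mean of at least 5 CPM were those of Epha4, Epha1, Ltk and Flt4. Epha4, an ephrin receptor, was at 3.1, 2.11 and 1.84 CPM in the knockout libraries and at 70.7, 72.8 and 76.9 CPM in the control libraries, and fell 31.1-fold (adjusted p = 0.000205). Epha1 fell 17-fold, Ltk 11.7-fold and Flt4 7.11-fold (adjusted p = 0.00473, 0.00029 and 0.00139 by edgeR). Insr and Ptk7, the nearest neighbours of Ddr1 in this order, had log2 fold changes of 0.68 (SE 0.344) and 0.52 (SE 0.195) and did not pass (adjusted p = 0.168 and 0.0805); the value of Ddr1 lies within 1 SE of both.

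**Figure D4:**
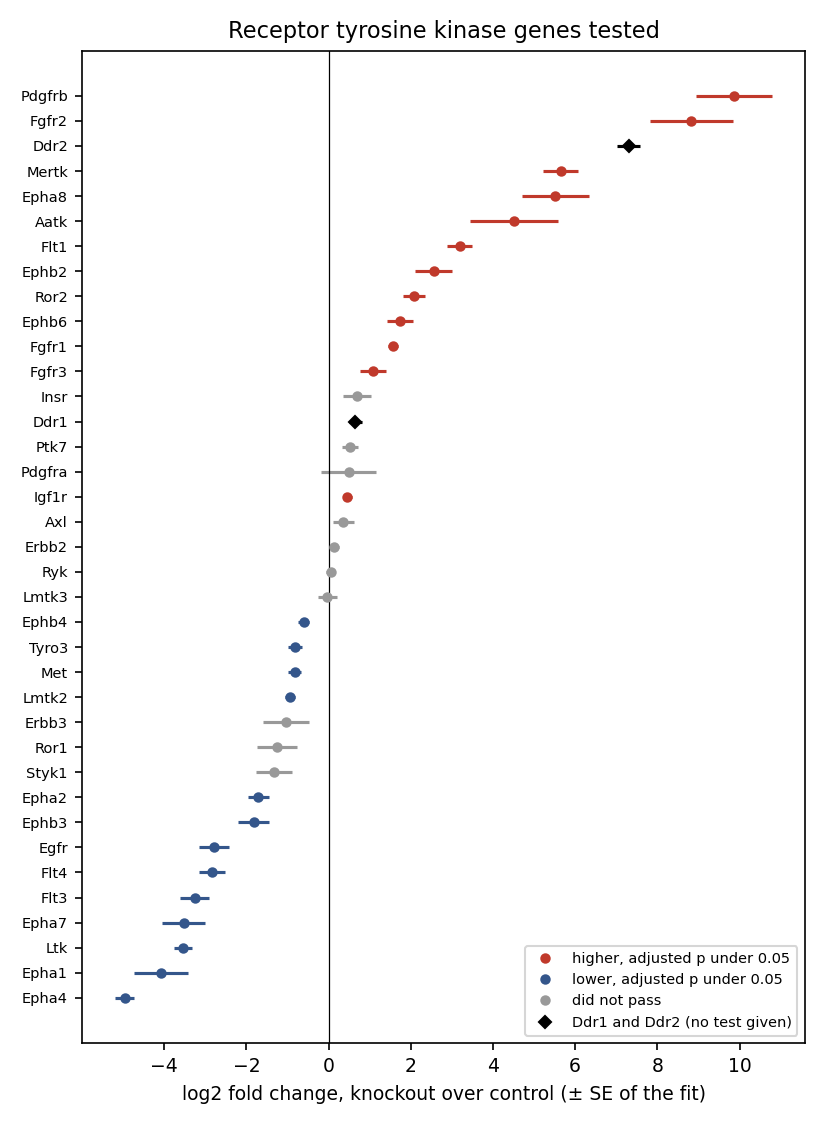
Log2 fold changes, knockout over control, with the standard error of the fit, for the 35 other receptor tyrosine kinase genes tested and for Ddr1 and Ddr2 (black diamonds). Red points passed higher, blue points passed lower and grey points did not pass. Ddr2, at 7.30, lies below Pdgfrb and Fgfr2 alone, and Ddr1, at 0.65, lies among small changes.

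The discoidin fold is shared with proteins outside the kinase family. Of 14 such genes 7 were tested, of which 3 rose, 1 fell and 3 did not pass, where 35.7% of all genes were called. The median log2 fold change was -0.40. Mfge8, a secreted bridge protein, rose 2.39-fold to 470 ± 68.4 CPM, against 197 ± 18.6 CPM in control, and the co-receptor Nrp1 rose 7.11-fold to 68.9 ± 32.9 CPM, against 9.69 ± 1.95 CPM in control (SD, n = 3 each; adjusted p = 0.0019 and 0.00306 by edgeR). Cntnap1 (log2 fold change 0.80, adjusted p = 0.0341) and Dcbld1 (-0.60, adjusted p = 0.0255) lost their calls without knockout library 2 or any 1 control library (adjusted p between 0.052 and 0.133). Without any 1 control library 2 rose and none fell, none fell without knockout library 2, and 3 fell without knockout library 3.

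The genes most like each receptor over the 6 libraries were found by the distance between log2 CPM profiles centred on each gene's mean, among 10109 tested genes that averaged at least 5 CPM. A symbol pattern for predicted genes, clones, pseudogenes and antisense transcripts left out 184 further genes at this level, among them some ordinary genes such as Fos and Sos1, and the 5 nearest genes of each receptor were the same with none left out. Since the distance uses the same comparison, their changes are described and not tested. Nearest to Ddr1 were Itfg1, Dnpep, Plgrkt, Wdr59 and Hpcal1, at distances of 0.0908 to 0.126. Itfg1 was at 91.2, 99.3 and 134 CPM in the knockout libraries and at 73.7, 66.6 and 71 CPM in the control libraries, with knockout library 3 the highest, as for Ddr1. Nearest to Ddr2 were Daam2, Rgs2, S1pr3, Aqp1 and Mxra8, at larger distances of 0.91 to 1.19. S1pr3, a receptor for sphingosine-1-phosphate, was at 31.3, 34.4 and 45.4 CPM in the knockout libraries and at 0.374, 0.147 and 0.243 CPM in the control libraries. Aqp1, a water channel, was at 268, 473 and 530 CPM in the knockout libraries and at 3.56, 2.45 and 3.58 CPM in the control libraries. Each of these 5 genes was lowest of the knockout group in knockout library 1, where Ddr2 was highest.

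**Figure D5:**
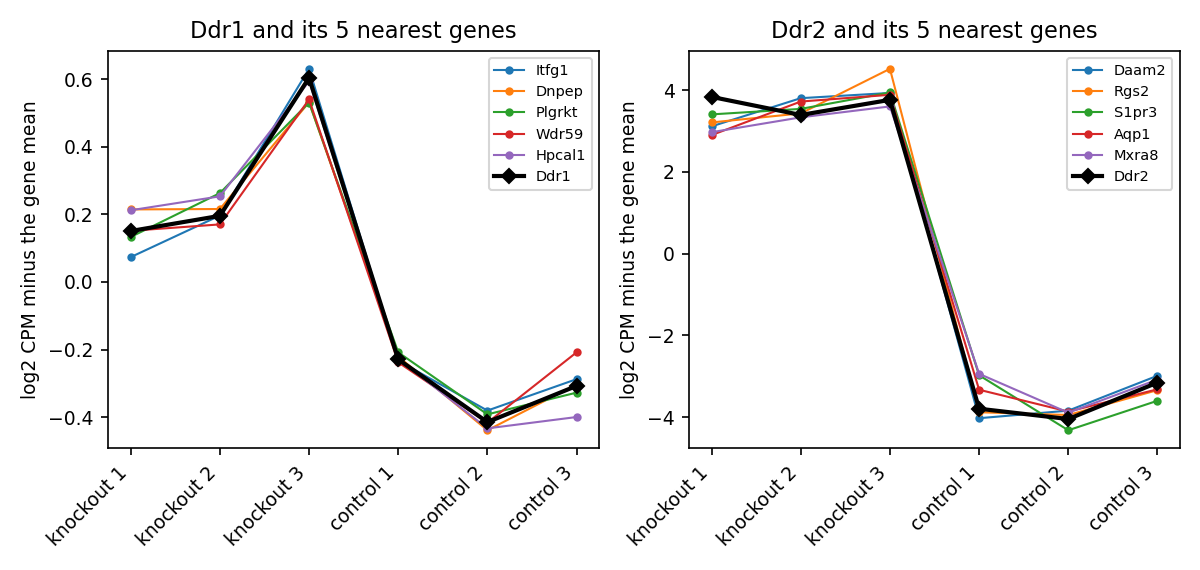
Log2 CPM minus the mean of each gene over the 6 libraries, for Ddr1 (left) and Ddr2 (right) in black and the 5 genes nearest to each in colour; lines only join the points of one gene. The profiles of Ddr1 and its neighbours peak in knockout library 3, and those of Ddr2 and its neighbours differ by group and, among knockout libraries, in library 1.

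Markers of cell types that carry one or the other receptor were measured beside them. Of 13 epithelial markers 12 were tested, 10 fell and 2 did not pass, where 15.4% of all genes were lower. The summed level of these markers lay between 5836 and 8621 CPM in the knockout libraries and between 12105 and 14781 CPM in the control libraries. Epcam fell 14.7-fold to 36.9 ± 16 CPM, against 541 ± 67.6 CPM in control, Krt18 fell 3.82-fold and Cldn7 15.6-fold (adjusted p = 0.000645, 0.00103 and 0.00117 by edgeR). Epcam, Krt18 and Cldn7 were thus present in both groups of this carcinoma line and lower in knockout, but not all epithelial markers fell. DESeq2, the fit without the filter and at least 1 fit without a single library called 1 epithelial marker higher. Cldn7 fell 23.6-fold without knockout library 1. Of 16 fibroblast markers, 10 were tested, 8 rose and 2 did not pass, where 20.3% of all genes were higher. Some members of this list again entered through their knockout counts. Their summed level lay between 4045 and 8084 CPM in the knockout libraries and between 271 and 327 CPM in the control libraries. In the knockout libraries most of it came from Col6a1, Col6a2, Col6a3 and Mgp. Col6a1 was at 1245, 1637 and 2810 CPM in the knockout libraries and at 3.37, 1.08 and 2.13 CPM in the control libraries. The lists share members, so their counts are not separate observations. Among the fibroblast markers, Col1a1 and Col3a1 are also fibrillar chains and Pdgfrb is also a receptor tyrosine kinase. The epithelial marker Cdh1 is also listed as a DDR1 partner.

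Other defining fibroblast markers were at or near 0: Lum had no count in any library, and Col1a2, Dcn, Postn, Thy1 and Fap, 6 of 16 with Lum, stayed under 1 CPM in every library. The part of the fibroblast markers in the level of Ddr2 was not tested beyond this, and in bulk RNA more cells of a kind and more RNA per cell cannot be told apart. Of 10 immune cell markers, 9 stayed under 1 CPM in every library, the exception being Cd68, with 3.1, 1.76 and 36.8 CPM in the knockout libraries and 5.8, 2.16 and 3.64 CPM in the control libraries (adjusted p = 0.248). Of 10 endothelial markers 4 were tested, of which 3 rose and 1 did not pass, where 20.3% of all genes were higher. In every library 6 of the 10 stayed under 1 CPM. Besides Flt1, Plvap rose 11.2-fold and Eng 2.49-fold (adjusted p = 0.0029 and 0.0123 by edgeR). Eng lost its call without control library 1, 2 or 3 (adjusted p = 0.0577, 0.0706 and 0.0646), so that 2 rose.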

How the data were processed

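The authors deposited one table of whole-number counts per gene symbol. Per the submitters' processing notes, STAR 2.7.1a, featureCounts and the build hg38 were involved. The annotation and the strand setting are not given in the sources used. Libraries were grouped by title, through the library names in their descriptions. Multiples of 11 fill 1704 rows, all with 0 in control library 1. These rows were divided by 11, and 76 entered the test.

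Knockout was tested against control by the robust quasi-likelihood method of edgeR 4.0.16 (R 4.3.3) after filterByExpr and TMM scaling, with Benjamini-Hochberg adjustment over 12293 genes and a threshold of 0.05. CPM use TMM-scaled totals. The standard error is the log2 fold change over the root of F. Profiles used log2 CPM with 0.5 added to counts. The procedure was tested on simulated data. No 2 libraries of a group agreed within counting noise, the chi-square over its degrees of freedom being 8.64 or more. Symbols that share reads with near-identical or overlapping genes could not be checked.

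The members, the 15 lists and the treatment of the rows of multiples of 11 were chosen with earlier results of these data known. Named were every tested collagen chain and other collagen receptor, and up to 4 members with the smallest p of each further list. Up to 4 receptor tyrosine kinases per direction with the largest change and at least 5 CPM on average were named too. So were the 5 genes nearest in profile, leaving out 184 genes by symbol pattern. Col1a2, Col10a1, Insr, Ptk7, Mmp14, Lox, Mmp2, Mmp13, Bmp1, Pcolce2, Tll1, Adamts2, Adamts3, Trp63, Col6a3, Pard6a, Ppp1r1b and members without enough counts were added after their values were seen. Neighbouring genes on the chromosome, planned at the outset, were not analysed here, since no mouse annotation was used. Alternatives were other scalings, DESeq2 1.42.0, no filter, the rows as deposited or left out, a replicate block and leaving out each library.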

Additional observations from a re-analysis of the deposited data

How the results depend on the processing

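The log2 fold changes lay between 0.61 and 0.65 for Ddr1 and between 7.27 and 7.31 for Ddr2 under the other scalings, DESeq2, no filter, the rows of multiples of 11 as deposited or left out, and the replicate block. Without each library in turn they lay between 0.49 and 0.73 for Ddr1, between 7.09 and 7.55 for Ddr2 and between 6.53 and 6.95 for the log2 ratio, all with the direction of the full data.

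Titles give both groups the numbers 1 to 3. Same-numbered libraries deviated from their group means with correlations of -0.0441, 0.225 and 0.0271 over 12293 genes, so the numbers were not taken to pair them. With the replicate block Ddr1 was at 0.63 and Ddr2 at 7.31, 1976 genes were higher and 1615 lower, and 1 network chain, 1 DDR1 partner and 1 protease or inhibitor gene rose and 0 discoidin-domain genes fell. Of 64 named genes 5 lost their call under the block. DESeq2 called 5 discoidin-domain genes higher and 3 lower, 1 epithelial marker higher, 1 fibroblast marker lower and 5 endothelial markers higher. Without the filter 1 DDR1 partner, 1 protease or inhibitor gene and 1 epithelial marker were higher, and with median-of-ratios scaling 1 protease or inhibitor gene was higher.

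Without single libraries, 1166 (without control library 2) to 3178 (without knockout library 3) genes were higher and 1130 (without control library 3) to 2843 (without knockout library 3) lower. Without control libraries 1 and 3 in turn 1511 and 1228 were higher, and without control libraries 1 and 2 in turn 1174 and 1146 lower; for the lists, higher and lower members numbered 6 and 0 (fibrillar chains), 1 to 2 and 3 (network chains), 11 to 13 and 0 (processing), 2 and 1 (other collagen receptors), 3 to 7 and 1 to 2 (docking and signalling), 0 to 2 and 3 to 6 (DDR1 partners), 1 to 4 and 1 to 3 (proteases and inhibitors), 3 and 2 to 3 (DDR2-linked), 9 to 10 and 4 to 5 (transcription factors), 9 to 14 and 10 to 15 (kinases), 2 to 4 and 0 to 3 (discoidin), 0 to 1 and 9 to 11 (epithelial), 7 to 8 and 0 to 1 (fibroblast), and 2 to 4 and 0 (endothelial). The cause of these shifts was not tested. Of the members, Ddr2 in control is limited by depth, with 8 to 12 counts a library.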
